A study of Mus musculus with 6 samples.

Results

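The Zfp genes are mouse genes named for zinc finger proteins, and those described here are the 186 protein-coding genes on chromosomes 2, 7, 13 and 17 whose symbol is Zfp followed by digits alone. They were chosen by symbol and chromosome from the GENCODE annotation of GRCm38 (mm10), out of 21670 protein-coding genes on chromosomes 1 to 19 and X, and 179 Zfp genes on the other chromosomes served for comparison. Whole-genome bisulfite libraries, 2 per group, gave the CpG methylation of 3 mouse stem cell states. Advanced pluripotent stem cells (ASC) grew in ABCL medium, which holds activin A, BMP4, a GSK3 inhibitor and LIF. The study derived ASC from blastocysts by way of stem cells grown in activin A and bFGF, which are not among these libraries. Naive embryonic stem cells (ESC) grew in 2i/LIF, and epiblast stem cells (EpiSC) stand for the primed state of the later epiblast. Per the labels all 6 libraries came from wild type cells of the strain 129S2/SvPasCrl, and the study names the sequenced cells as female. The methods of the study describe ASC made from GFP reporter cells, with 129/sv mothers and transgenic fathers of mixed background. Which lines were sequenced is not stated, so the labels could not be checked against this. The study names 2 biological replicates per condition, but the sources used here do not say how many lines stood behind a group. The p-values below therefore rest on the spread between 2 numbered libraries a group, which was moderated across regions.

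A C2H2 zinc finger is a short protein loop held around a zinc ion by cysteines and histidines, and a row of such fingers reads a stretch of DNA. In many of these proteins the fingers follow a KRAB domain, which recruits TRIM28 and, through it, the histone methyltransferase SETDB1 to silence retrotransposons and imprinted loci. The genes multiplied by local duplication and stand in clusters, typically with a CpG-containing promoter, a few short exons and all fingers in the last exon. Methylation of a promoter CpG-rich stretch goes with silencing, whereas methylation inside a gene body is the common state of active genes.

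Among the 186 genes, 89 lay on chromosome 7, 41 on chromosome 17, 31 on chromosome 13 and 25 on chromosome 2. Runs with gaps of at most 500 kb between gene starts joined 148 of them into 17 clusters of 3 or more, and 38 were scattered. The largest cluster held 23 genes at chr17:21008903-23599487, followed by 19 genes at chr13:67038596-67827002 and 15 genes at chr7:29768552-30169750. At least 1 C2H2 finger was found in 182 of the translated main transcripts and a KRAB core in 118. All fingers fell into the last exon in 158 genes, some in 7 and none in 17 genes with fingers. The median last exon was 2458 bp long with 30 CpG sites, against 1165 bp and 15 CpG sites over all protein-coding genes. Zfp36, which encodes the mRNA decay factor tristetraprolin with fingers of another kind, was one of 4 genes without a C2H2 finger and belongs to the set by its name only.

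The region compared at the front of each gene was the promoter, reaching 1000 bp upstream and 100 bp downstream of the start of 1 main transcript, and at the back the last exon of the same transcript. A level is the percentage of methylated among all CpG reads in the region, where a sequenced read counts once for each CpG site it covers. Single CpG sites had a mean coverage between 2.96 and 3.46 reads in the 6 libraries, which held between 63803799 and 74925271 CpG reads, so a region was tested only with at least 40 reads in every library. That left 126 promoters, 123 last exons and 100 genes with both, while 37 genes had neither. Bulk DNA cannot tell a level shared by all cells from a mixture of methylated and unmethylated cells or alleles.

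The stretches of sequence shown from promoters are the 250 bases just before the start of 4 genes, read from the GRCm38 genome on the strand of the gene, 5′ to 3′, with CpG sites in capitals. Zfp819 (chr7:43606975-43607224, plus strand), Zfp975 (chr7:42692719-42692968, minus strand) and Zfp977 (chr7:42592548-42592797, minus strand) had promoters methylated in EpiSC, and Zfp51 (chr17:21450124-21450373, plus strand) is shown as a gene whose start was unmethylated in all 3 kinds of cells.
Zfp819: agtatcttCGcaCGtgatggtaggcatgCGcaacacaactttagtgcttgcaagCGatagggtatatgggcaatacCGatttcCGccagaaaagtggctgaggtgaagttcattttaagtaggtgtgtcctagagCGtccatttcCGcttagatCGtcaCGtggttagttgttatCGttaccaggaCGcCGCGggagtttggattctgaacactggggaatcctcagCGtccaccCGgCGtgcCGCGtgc
Zfp975: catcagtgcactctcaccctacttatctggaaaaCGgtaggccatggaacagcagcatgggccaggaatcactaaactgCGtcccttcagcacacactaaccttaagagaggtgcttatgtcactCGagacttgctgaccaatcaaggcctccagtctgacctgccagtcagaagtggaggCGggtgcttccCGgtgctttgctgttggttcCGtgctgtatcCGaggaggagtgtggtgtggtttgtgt
Zfp977: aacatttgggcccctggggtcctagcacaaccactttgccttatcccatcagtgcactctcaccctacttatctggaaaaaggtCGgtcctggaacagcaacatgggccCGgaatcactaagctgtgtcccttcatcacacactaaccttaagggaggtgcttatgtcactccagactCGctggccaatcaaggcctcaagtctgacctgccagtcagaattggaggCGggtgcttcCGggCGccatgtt
Zfp51: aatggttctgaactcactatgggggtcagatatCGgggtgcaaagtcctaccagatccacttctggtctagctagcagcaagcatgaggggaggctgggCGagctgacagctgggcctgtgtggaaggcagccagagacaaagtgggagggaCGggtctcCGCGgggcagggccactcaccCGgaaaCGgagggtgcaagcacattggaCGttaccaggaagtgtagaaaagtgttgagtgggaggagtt

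The 19 CpG sites in front of Zfp819 showed no methylated read in the ASC libraries (0% of 44 and 0% of 55 reads) or in the ESC libraries (0% of 61 and 0% of 58 reads), but 98.2% and 96.4% were methylated in the EpiSC libraries at 112 and 83 reads. The 7 sites in front of Zfp975 gave 0% in all ASC and ESC libraries, at 11 to 34 reads, and 77.1% and 88.9% in EpiSC. The 6 sites in front of Zfp977 gave 20% and 20.8% in ASC, 10.7% and 11.8% in ESC and 93.9% and 89.5% in EpiSC, at 17 to 33 reads. The 8 sites in front of Zfp51 gave 0% in all 6 libraries at 25 to 52 reads. A count of 0 at the fewest reads allows a level of up to 6.82% in front of Zfp819, 27.3% in front of Zfp975 and 12% in front of Zfp51, where only counting error is covered. So the starts of Zfp819 and Zfp975 had no methylated read in ASC, that of Zfp977 had some, all 3 were mostly methylated in EpiSC, and that of Zfp51 had none in any library. The 250 bases of Zfp975 and Zfp977, in the same cluster, were 63.9% identical in a global alignment, and those of Zfp977 and Zfp808 on chromosome 13 were 61.1% identical. Zfp819 was 45.8% to 50.7% identical to each of the others compared, and Zfp808 was 48.1% identical to Zfp975 and 46.8% to Zfp976. Zfp975 and Zfp976 were 88.2% identical there, as were Zfp977 and Zfp936, and how reads were placed between such copies was not tested.

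The stretches shown from last exons are 3 neighbouring fingers with the most CpG sites in the exon, again on the strand of the gene with CpG sites in capitals. Zfp787 (chr7:6132735-6132965, minus strand) and Zfp30 (chr7:29793064-29793294, plus strand) were almost unmethylated in ASC, and Zfp420 (chr7:29875539-29875769, plus strand), 1 of the 15 genes of the same cluster as Zfp30, was methylated there.
Zfp787: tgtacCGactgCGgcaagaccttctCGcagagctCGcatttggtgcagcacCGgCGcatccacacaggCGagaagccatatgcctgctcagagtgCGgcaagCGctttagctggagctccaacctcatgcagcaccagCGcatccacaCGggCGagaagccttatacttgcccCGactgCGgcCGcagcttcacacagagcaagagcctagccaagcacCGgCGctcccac
Zfp30: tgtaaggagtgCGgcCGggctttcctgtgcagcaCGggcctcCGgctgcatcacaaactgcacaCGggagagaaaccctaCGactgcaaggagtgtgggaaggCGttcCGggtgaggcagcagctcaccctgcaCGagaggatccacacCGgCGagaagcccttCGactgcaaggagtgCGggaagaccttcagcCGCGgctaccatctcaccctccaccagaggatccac
Zfp420: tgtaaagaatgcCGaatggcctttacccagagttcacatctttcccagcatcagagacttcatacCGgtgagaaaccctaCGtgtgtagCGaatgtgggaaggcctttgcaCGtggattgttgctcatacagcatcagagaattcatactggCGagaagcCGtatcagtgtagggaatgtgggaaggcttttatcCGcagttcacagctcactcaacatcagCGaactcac

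Over these 231 bases Zfp787 held 17 CpG sites, Zfp30 held 15 and Zfp420 held 9. The fingers of Zfp787 were methylated to 2% and 4.26% in ASC, 0.73% and 2.06% in ESC and 96.1% and 97.4% in EpiSC. Those of Zfp30 were methylated to 1.54% and 0% in ASC, 0% and 1.64% in ESC and 100% and 98.7% in EpiSC. In Zfp420 the levels were 80% and 78% in ASC, 34.3% and 30.4% in ESC and 95.7% and 95.2% in EpiSC. The EpiSC libraries did not separate these exons, whereas in ASC the fingers of Zfp787 and Zfp30 lay far under those of Zfp420. Reads per library numbered 78 to 141 for Zfp787, 32 to 101 for Zfp30 and 23 to 50 for Zfp420, partly under the minimum used for whole regions, and the 0% of Zfp30 at 32 reads allows up to 9.38%. The 3 genes were picked for display with these levels known. In ASC the whole last exons of Zfp787 and Zfp30, given further below, were more methylated than these stretches. A stretch of Zfp553 found the same way is not shown. It gave 0% and 20.4% in ASC at 45 and 49 reads, so its 2 ASC libraries were apart.

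At the median both ends of the Zfp genes were lowest in ESC and highest in EpiSC, and the last exon lay far above the promoter in ASC and EpiSC. The promoter medians of ESC and ASC both lay near the floor. The median promoter level was 2.16% and 2.76% in the ASC libraries, 0.895% and 0.813% in ESC and 12.8% and 12.9% in EpiSC. The median last exon level was 65.4% and 65.5% in ASC, 18% and 18.8% in ESC and 95.4% and 95% in EpiSC. Over all protein-coding genes the promoter medians were 4.49% ± 0.132 (SD, n = 2) in ASC, 1.45% ± 0.00748 in ESC and 13.6% ± 0.611 in EpiSC, and the last exon medians were 65.8% ± 0.131, 19.4% ± 0.334 and 93.8% ± 0.00347. Zfp genes of the other chromosomes gave 4.44% ± 0.381, 1.1% ± 0.0342 and 13.4% ± 1.66 for promoters. Medians of the libraries of 1 group lay within 1 point of each other in the Zfp set, and those of different groups did not overlap. The promoter medians depend on the window and on the way sites are summed. As a mean over sites with at least 5 reads they were 2.3% in ASC, 0.243% in ESC and 9.28% in EpiSC. With 500 bp on either side of the start they were 0.756% in ASC, 0.482% in ESC and 4.22% in EpiSC over 160 genes, against 1.01%, 0.738% and 3.74% over all genes. With this window the Zfp median in EpiSC lay above that of all genes and not below it. With at least 100 reads in every library the Zfp medians were 0.978%, 0.548% and 6.61% over 50 genes.

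**Figure D1:**
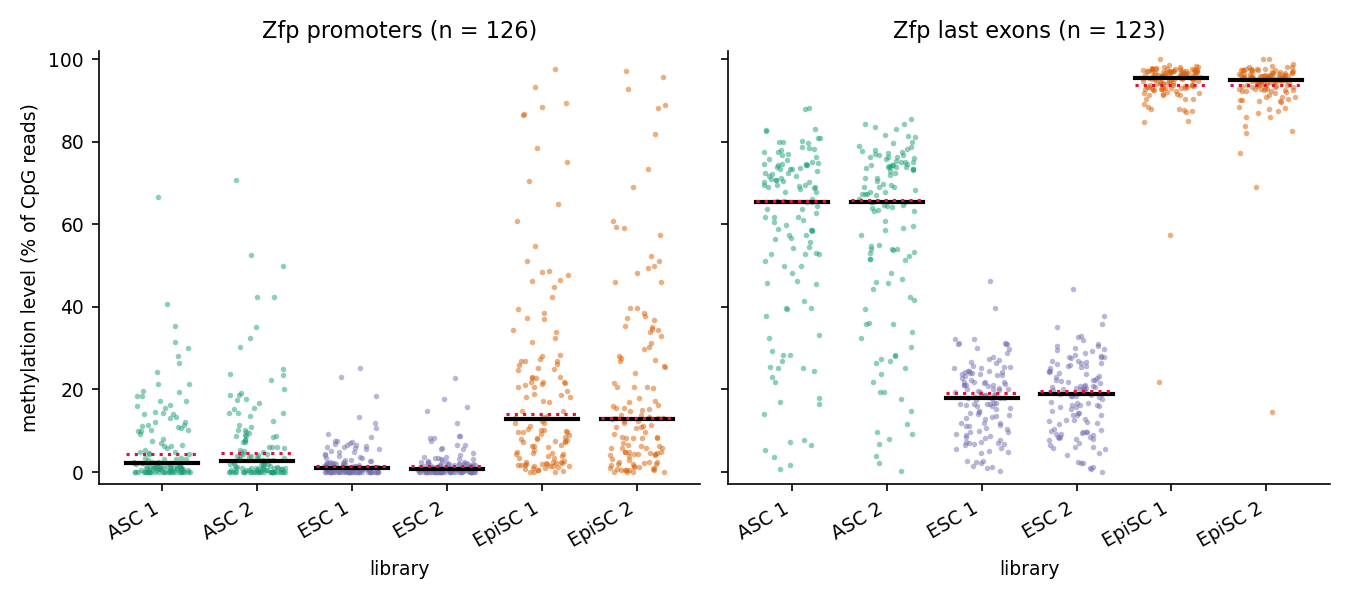
Methylation level in percent of CpG reads for 126 Zfp promoters (left) and 123 Zfp last exons (right) in each of the 6 libraries, where a point is a gene, the black bar the median of the Zfp genes and the dotted red bar the median of all protein-coding genes. Promoters sit near the bottom in ASC and ESC with a tail in EpiSC, and last exons form a band above 80% in EpiSC with 2 group means under it, but are spread out in ASC.

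Along the gene the level was lowest in the bases around the start and rose on both sides. Pooled over the Zfp genes, the first 200 bp of the transcript were methylated to 2.91% and 3.16% in ASC, 1.22% and 0.914% in ESC and 7.75% and 7.68% in EpiSC. Between 1000 and 1199 bp into the gene the pooled levels were 27.8% and 27.5% in ASC and 69.5% and 64.2% in EpiSC. Over all genes the same stretch gave 22.9% and 23.2% in ASC and 48.8% and 47.2% in EpiSC. At the start of the last exon EpiSC levels of the Zfp genes reached 91.8% and 92.2% in the first 200 bp, against 84.6% and 84.2% over all genes. In ASC the Zfp exons fell to 42.4% and 41.8% between 400 and 599 bp after the exon start, where all genes gave 51.3% and 51.9%. These pooled levels weight CpG-rich genes more and carry no test.

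**Figure D2:**
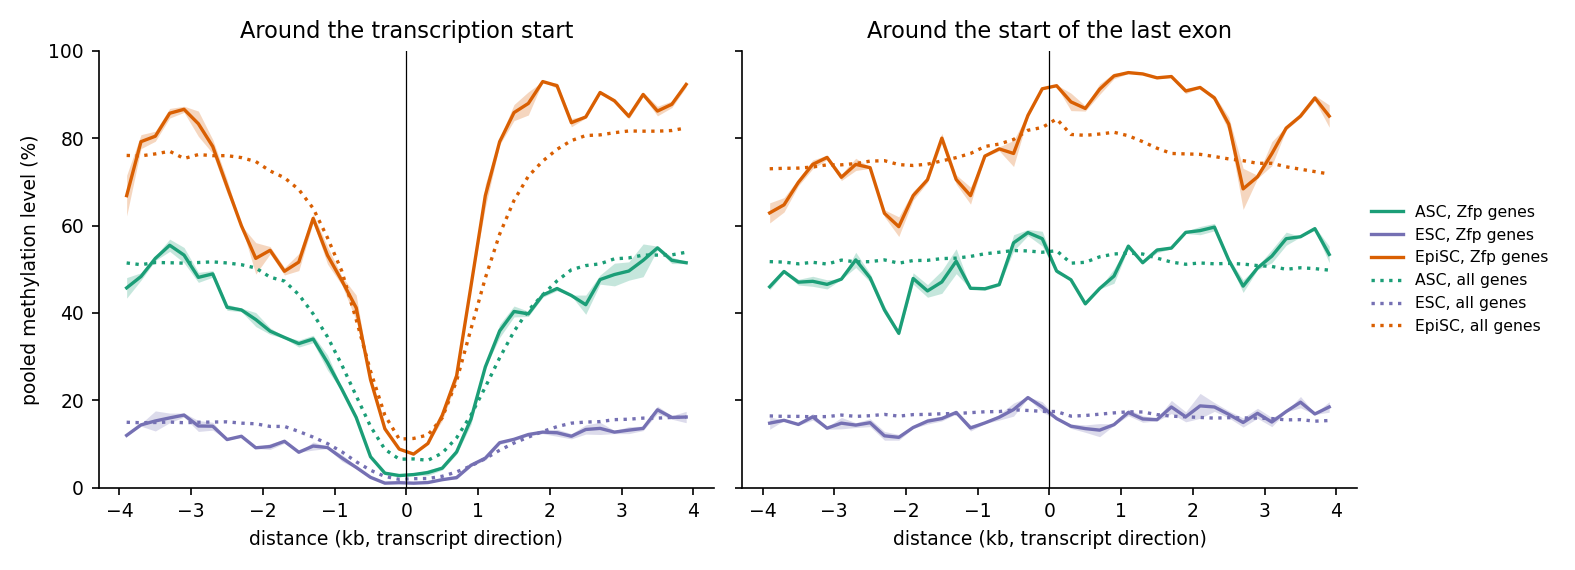
Methylation level in percent, pooled over genes in bins of 200 bp, against the distance in kb from the transcription start (left) and from the start of the last exon (right). Solid lines are Zfp genes (mean of 2 libraries, shading from the lower to the higher library) and dotted lines all protein-coding genes. The EpiSC line runs from 7.75% and 7.68% in the first 200 bp of the transcript to 91.8% and 92.2% in the first 200 bp of the last exon, and the ASC line dips inside the last exon.

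The first comparison asked which Zfp promoters differ between ASC and primed EpiSC. Of the 126 tested promoters, 31 were lower in ASC by at least 20 points at an adjusted p under 0.05, and none was higher. The 31 make up 24.6% of the tested Zfp promoters, and 24.2% of all 14425 tested promoters passed in this direction, as did 18.4% of those of Zfp genes on other chromosomes. With 500 bp on either side of the start as the promoter, 26 of 160 Zfp promoters passed, or 16.2%, against 21.3% of all promoters. The Zfp promoters called had EpiSC levels between 24.1% and 97.3% and ASC levels between 0% and 40.1%. Under 10% in ASC were 20 of these 31, 74 of the 95 Zfp promoters not called and 64.9% of all promoters. By promoter type, 9 of the 17 tested promoters of low CpG density were called, 19 of the 72 of intermediate and 3 of the 37 of high density. These are 52.9%, 26.4% and 8.11%, where 60.1%, 25.9% and 6.94% of all promoters of the same classes passed. Of the 96 tested promoters in clusters 28 were called, or 29.2%, and of the 30 scattered ones 3 were, a difference that was not tested.

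Zfp975 was methylated to 0% and 0% in ASC, 0% and 0% in ESC and 88.3% and 88.9% in EpiSC at its promoter (chr7:42692618-42693718), a difference of -88.6 points for ASC minus EpiSC (adjusted p = 1.42e-06). Zfp819, described in spermatogenesis and in embryonic stem cells, had promoter levels (chr7:43606225-43607325) of 12.1% and 8.8% in ASC, 2.33% and 2.08% in ESC and 97.5% and 97.1% in EpiSC (difference -86.8 points, adjusted p = 2.54e-07). Zfp808, a KRAB gene at the edge of a chromosome 13 cluster (chr13:62128916-62130016), gave 2.38% and 4.76% in ASC and 86.7% and 88.1% in EpiSC (adjusted p = 5.31e-06). In these 3 genes the ASC promoter resembled the ESC promoter and not the EpiSC promoter. Zfp65 (chr13:67729073-67730173) followed with 4.88% and 6.15% in ASC against 75% and 73.4% in EpiSC (adjusted p = 5.28e-05). Zfp977 (chr7:42592447-42593547) gave 26.5% and 23.7% in ASC, 6.9% and 5.77% in ESC and 93.2% and 92.7% in EpiSC (adjusted p = 1.5e-05). Zfp977 was thus partly methylated in ASC, and its 3 kinds of cells did not overlap.

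**Figure D3:**
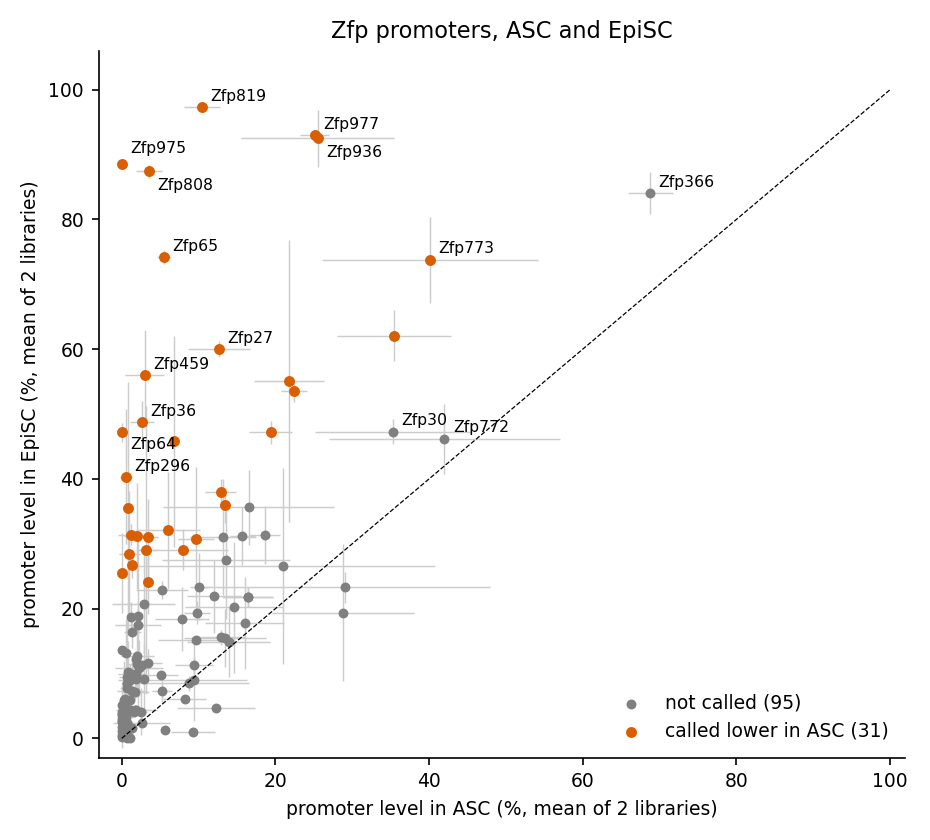
Promoter level in EpiSC against promoter level in ASC, in percent, for the 126 tested Zfp promoters, as means of 2 libraries with SD bars and the line of equal levels. The 31 genes called lower in ASC (orange) rise along the left side, and Zfp975, Zfp819, Zfp808, Zfp977 and Zfp936 stand above 85% in EpiSC.

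A second tier of promoters reached middle levels in EpiSC. Zfp296, a regulator of pluripotent cells used in reprogramming, had a promoter (chr7:19576287-19577387) at 0% and 1.1% in ASC, 0.948% and 0.488% in ESC and 47.6% and 32.9% in EpiSC (adjusted p = 2.06e-05 for ASC against EpiSC). Zfp64 (chr2:168955487-168956587) was at 0% and 0% in ASC and 46.2% and 48.2% in EpiSC (adjusted p = 4.16e-06), and Zfp36 (chr7:28380153-28381253) at 1.59% and 3.74% in ASC and 46.5% and 51% in EpiSC (adjusted p = 1.62e-05). Zfp110, which encodes a factor that interacts with the neurotrophin receptor, was at 2.3% and 0% in ASC and 32.5% and 30.2% in EpiSC (adjusted p = 0.000128). Zfp335, a part of a histone methyltransferase complex needed in brain development, was at 3.51% and 3.38% in ASC and 20.6% and 27.5% in EpiSC (adjusted p = 5.84e-05), just past the minimum difference. The ASC levels of these promoters lay below their EpiSC levels, which the call itself largely fixes.

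Zfp57 and Zfp568, the best known imprint and placental regulators of the family, did not pass. Zfp57, which keeps methylation at imprinted regions, had promoter levels (chr17:37002666-37003766) of 1.01% and 0.442% in ASC, 0% and 0% in ESC and 11.2% and 5.79% in EpiSC, a difference of -7.77 points for ASC minus EpiSC (adjusted p = 0.00247). Zfp568, which represses a placental transcript of Igf2, gave 0.847% and 0% in ASC, 0.27% and 0.348% in ESC and 4.8% and 5.88% in EpiSC (adjusted p = 0.00609). Both groups of levels were apart, but by less than 20 points. Zfp143, a promoter-binding factor with a part in chromatin loops, gave 0% in all ASC and ESC libraries and 6.25% and 4.05% in EpiSC. Zfp217, the mouse counterpart of an oncogene, lay between 0.633% and 2.39% in all 6 libraries, and its ASC and EpiSC levels overlapped. Zfp708, a KRAB protein that binds a family of retrotransposons, was not tested at 38 reads and read 1.89% and 0% in ASC and 18.4% and 18.4% in EpiSC. Zfp541, a meiotic regulator of the testis, was not tested either, with 25 reads in its shallowest library and 5 CpG sites, and read 70.9% and 59.5% in ASC and 92% and 84.7% in EpiSC.

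The 4 tested promoters with the highest EpiSC levels lay in 1 cluster. The cluster at chr7:42473386-43618285 holds 9 Zfp genes among 16 other protein-coding genes. Of its 6 tested promoters 4 were called, where 24.2% of all promoters passed. The median of the 6 was 15.7% in ASC, 3.36% in ESC and 90.5% in EpiSC. In EpiSC 4.76% of all tested Zfp promoters were at 80% or more, against 14.9% of the promoters of all genes. Zfp936 (chr7:43176588-43177688) gave 18.4% and 32.5% in ASC and 89.4% and 95.6% in EpiSC (adjusted p = 5.22e-05). Zfp976 fell short of the minimum with 39 reads and was at 0% and 0% in ASC and 87.2% and 93.1% in EpiSC. Zfp715 had 28 reads in its shallowest library and was at 21.6% and 35.9% in ASC and 84% and 91.9% in EpiSC. Not every promoter of the cluster took part: Zfp141 gave 13.1% and 6.12% in ASC and 14.9% and 15.4% in EpiSC (adjusted p = 0.389), and Zfp719 gave 6.98% and 35% in ASC and 37.2% and 15.9% in EpiSC, so that its groups overlapped. The cluster was chosen for this account after its values were seen.

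**Figure D4:**
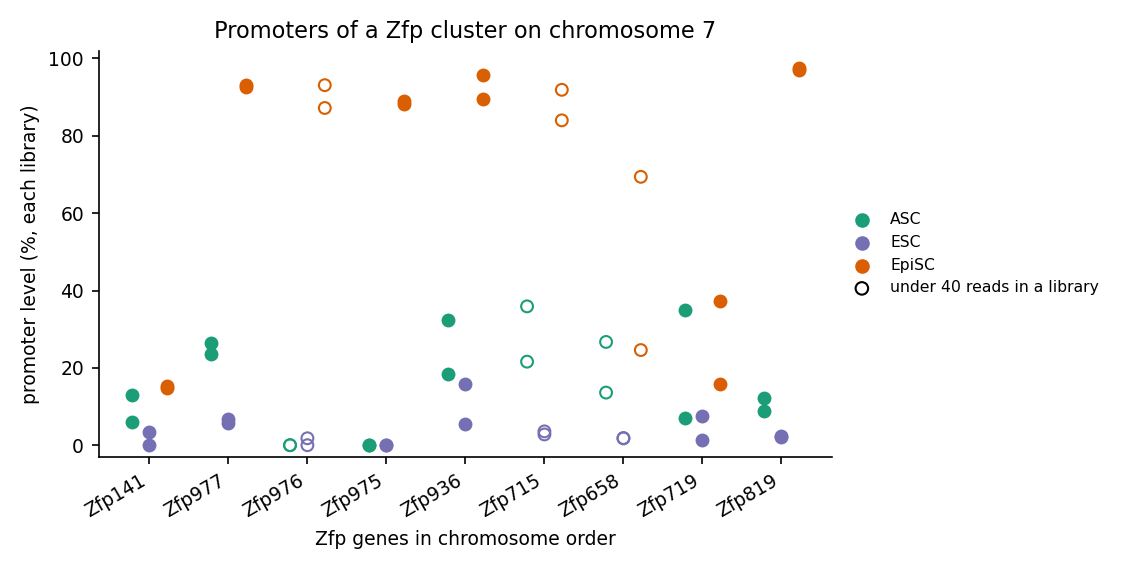
Promoter level in percent in each library for the 9 Zfp genes of the chromosome 7 cluster from Zfp141 to Zfp819, in chromosome order; open circles are promoters with under 40 reads in a library. In Zfp977, Zfp976, Zfp975, Zfp936, Zfp715 and Zfp819 both EpiSC libraries lie above 80%, and Zfp141 and Zfp719 stay under 40%.

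Other clusters differed in level, and the calls in them stand beside the 24.2% of all promoters lower in ASC than in EpiSC. The 19-gene cluster at chr13:67038596-67827002, home of the regulators of sex-limited liver genes, had 6 tested promoters with medians of 6.72% in ASC and 41.3% in EpiSC, and 4 were called. Zfp459 in it gave 4.76% and 1.22% in ASC and 51.1% and 60.9% in EpiSC (adjusted p = 3.53e-05). In the 15-gene cluster at chr7:29768552-30169750, 14 promoters were tested, the medians were 4.25% in ASC and 14.6% in EpiSC, and 4 were called, Zfp27 with 9.9% and 15.6% in ASC and 60.8% and 59.1% in EpiSC (adjusted p = 0.000135) having the largest gap of the 4. In the 23-gene cluster on chromosome 17 the 11 tested promoters had medians of 0.714% in ASC and 5.99% in EpiSC and 1 was called. Clustered genes as a whole had a median of 2.91% in ASC and 15.3% in EpiSC over 96 promoters, and scattered genes 1.01% and 5.33% over 30. With a KRAB core the medians were 2.99% and 16.4% over 67 promoters, and without it 1.79% and 10% over 59. The clustered and the KRAB promoters also held fewer CpG sites, with medians of 28 and 26 against 40 and 40, and the part of CpG number in these gaps was not tested.

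Promoter levels were also set against CpG density. Promoters of high CpG density had medians of 0.68% in ASC and 4.43% in EpiSC over 37 Zfp genes, against 1.17% and 4.79% over 6036 promoters of all genes. Intermediate promoters gave 2.91% and 16.5% over 72 Zfp genes and 7.14% and 18.5% over 5771 of all genes. Low-density promoters gave 13.2% and 38% over 17 Zfp genes and 47.8% and 85.6% over 2618 of all genes. Only 17 of the 62 low-density Zfp promoters had enough reads, and those 17 held a median of 16 CpG sites. Across classes the EpiSC medians of the Zfp promoters rose as density fell, and in each class they lay below those of all genes, by a margin that was not tested.

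Against naive ESC few Zfp promoters were higher in ASC, namely 6 of 126, or 4.76%, where 17.3% of all promoters passed. Zfp366, a regulator in dendritic cells, had the largest gap, with 66.7% and 70.8% in ASC, 22.9% and 17.6% in ESC and 86.4% and 81.8% in EpiSC (chr13:99183823-99184923, adjusted p = 0.000373 for ASC against ESC). It had the highest ASC level of the tested Zfp promoters. Zfp772 gave 31.4% and 52.6% in ASC and 13.4% and 8.2% in ESC (adjusted p = 0.008), and Zfp414 35.3% and 22.2% against 4.92% and 0.917% (adjusted p = 0.00405). Zfp334 gave 15.6% and 42.4% in ASC and 6.94% and 1.67% in ESC (adjusted p = 0.0133), and Zfp30 28% and 42.5% against 7.34% and 14.8% (adjusted p = 0.00664). Zfp953, the other promoter called, gave 21.2% and 23.6% against 1.52% and 2.44% (adjusted p = 0.00181). The ASC libraries of Zfp772, Zfp414, Zfp334 and Zfp30 were far apart but above ESC. The calls of Zfp772, Zfp414, Zfp334 and Zfp30 did not hold without every library: the first without either ESC or either EpiSC replicate, the second without ASC replicate 1 or ESC replicate 2, the third without ASC replicate 2 or any ESC or EpiSC replicate and the fourth without ASC replicate 2 or ESC replicate 1. The count of 6 fell to 3 without ESC replicate 1 and to 3 without ESC replicate 2. Over the window of 500 bp on either side of the start the calls of Zfp414, Zfp334 and Zfp30 were lost, with differences of -1.15 (adjusted p = 0.762), 5.55 (adjusted p = 0.0945) and 1.81 points (adjusted p = 0.187) for ASC minus ESC.

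In EpiSC 42 of the 126 promoters, or 33.3%, were higher than in ESC, where 36.9% of all promoters passed. With 500 bp on either side of the start the shares were 18.1% and 27.4%. The gaps were led by Zfp819 at 95.1 points (adjusted p = 6.58e-08), Zfp975 at 88.6 (adjusted p = 3.89e-07), Zfp977 at 86.6 (adjusted p = 1.02e-06), Zfp808 at 86.5 (adjusted p = 6.72e-07) and Zfp936 at 81.8 (adjusted p = 3.11e-06). These comparisons share libraries with the one between ASC and EpiSC, whose values stand above. No Zfp promoter was called lower in ASC than in ESC, lower in EpiSC than in ESC or higher in ASC than in EpiSC by the quasi-binomial model with limma-moderated dispersion, by Fisher's exact test or by limma on M values. At an unadjusted p under 0.05 the first 2 counts were 0 and 0, and the last was 3. Over all promoters the shares called in these directions were 0%, 0.00693% and 0.146%. In ESC the highest mean of a tested Zfp promoter was 20.7%, and 120 of the 126 lay under 10%. A fall from ESC by the minimum difference was thus out of reach for nearly all of them. The absence of calls below ESC therefore says little, whichever method is used.

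The last exons, which hold the fingers of most of these genes, differed more at the median than the promoters did. Of the 123 tested, 94 were lower in ASC than in EpiSC, or 76.4%, where 68.0% of all 10250 last exons passed and 79.8% of those of Zfp genes on other chromosomes. None was higher by any of the 3 methods, nor at an unadjusted p under 0.05. Over all last exons 10 of 10250 were called higher, or 0.0976%. The 121 Zfp exons at 80% or more in EpiSC had almost no room for a rise by the minimum difference. The absence of such calls therefore says little, whichever method is used. The median difference of ASC minus EpiSC was -28.1 points, against -25.3 points over all last exons and -7.19 points over the Zfp promoters. In EpiSC 121 of the 123 exons were at 80% or more and 110 at 90% or more, whereas in ASC 6 reached 80% and none 90%. Over all 10250 last exons 90.8% reached 80% and 76.7% reached 90% in EpiSC, against 7.84% and 0.117% in ASC. So most exons were high in EpiSC and few in ASC, both in the Zfp set and over all genes.

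A group of 20 last exons, or 16.3%, lay under 30% in ASC, where 13.2% of all last exons did. Of the 20, 18 were at 80% or more in EpiSC. Exons with this pattern made up 14.6% of the Zfp exons tested and 6.68% of all last exons tested, a difference that was not tested. Among promoters the same pattern made up 3.97% of the Zfp ones and 2.97% of all. Zfp428 (chr7:24515076-24515682) was methylated to 1.68% and 2.17% in ASC, 1.41% and 1.3% in ESC and 95.6% and 92.3% in EpiSC, a difference of -92 points for ASC minus EpiSC (adjusted p = 1.33e-33). Zfp553 (chr7:127235264-127238179) gave 3.59% and 6.85% in ASC, 1.18% and 1.03% in ESC and 96.6% and 94.2% in EpiSC (adjusted p = 5e-60). Zfp57 (chr17:37009419-37010632) gave 7.38% and 7.89% in ASC, 2.08% and 2.34% in ESC and 95.1% and 96.5% in EpiSC (adjusted p = 3.31e-37). The 3 exons were near their ESC level in ASC and nearly full in EpiSC, while their promoters were low in both. Zfp787 (chr7:6131491-6133171) gave 14.1% and 11.7% in ASC, 2.52% and 2.31% in ESC and 97.6% and 97.3% in EpiSC (adjusted p = 2.2e-57). Zfp36 (chr7:28376784-28378493) gave 6.57% and 9.25% in ASC, 2.65% and 4.13% in ESC and 87.1% and 90.7% in EpiSC (adjusted p = 5.18e-41). Zfp36 has no C2H2 finger, and its exon showed the same pattern as the finger exons.

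Further genes of this group were Zfp296 with 7.82% and 9.63% in ASC against 84.8% and 82.6% in EpiSC (chr7:19579613-19580656, adjusted p = 8.22e-33) and Zfp64 with 23.1% and 25.2% against 97% and 95.3% (chr2:168893331-168894533, adjusted p = 3.45e-37). Zfp30 gave 17.9% and 26.4% in ASC against 96.9% and 95.5% in EpiSC (chr7:29792360-29794702, adjusted p = 1.34e-43), and Zfp524 gave 25.1% and 28.4% against 97.6% and 95.5% (chr7:5017437-5018487, adjusted p = 9.82e-38). Zfp13, Zfp213, Zfp324, Zfp444, Zfp574, Zfp579, Zfp628, Zfp658 and Zfp689 complete the 18, with ASC means between 15.9% and 28.3%. Of the 18, Zfp296, Zfp64, Zfp36, Zfp324 and Zfp628 were called lower in ASC than in EpiSC at both ends.

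The 2 exceptions in EpiSC were the exons with the most CpG sites per 100 bp. Zfp771, whose last exon of 999 bp (chr7:127253805-127254803) holds 136 CpG sites, was at 0.843% and 0.148% in ASC, 0.353% and 0.0979% in ESC and 21.8% and 14.5% in EpiSC at 674 reads or more. The difference of -17.6 points for ASC minus EpiSC in Zfp771 did not reach the minimum (adjusted p = 2.84e-25). Zfp580 (chr7:5052805-5053723), with 65 CpG sites in 919 bp, gave 5.4% and 3.82% in ASC and 57.3% and 69% in EpiSC (adjusted p = 1.79e-34). The group means of all other tested exons were at 80% or more in EpiSC.

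Across the 123 exons the ASC level fell with the number of CpG sites per 100 bp (Pearson's r = -0.66, Spearman's rho = -0.59), and the ESC level did so too (r = -0.54, rho = -0.50). In EpiSC r was -0.60 but rho was 0.25, and Zfp771 and Zfp580, the 2 exons with the lowest EpiSC means, lay far below the rest. Over all 10250 last exons r was -0.57 and rho -0.34 in ASC, -0.40 and -0.27 in ESC and -0.51 and 0.03 in EpiSC. These are descriptions across genes that share 6 libraries. Exons with under 1 CpG site per 100 bp had medians of 73.1% in ASC, 23% in ESC and 95.1% in EpiSC over 30 genes, and those with over 3 sites 26.7%, 7.3% and 96.1% over 21 genes. Over all genes the same density classes gave 68.6%, 20% and 93% over 1750 exons and 20.7%, 6.22% and 93% over 1298 exons. The 20 exons under 30% in ASC held a median of 3.51 CpG sites per 100 bp, and the other 103 held 1.39. A KRAB core was found in 5 of the 20 and in 60 of the 103.

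**Figure D5:**
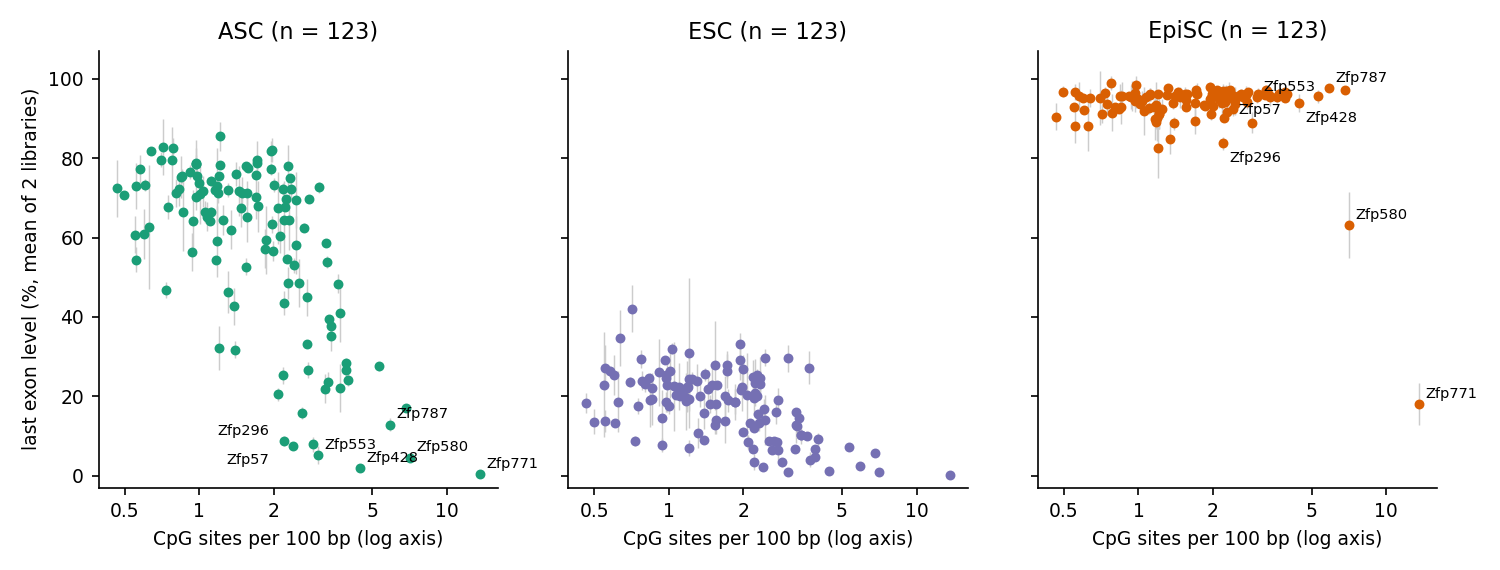
Last exon level in percent (mean of 2 libraries with SD bars) against the number of CpG sites per 100 bp of exon on a log axis, for 123 Zfp genes in ASC, ESC and EpiSC. In ASC the level drops above about 2 sites per 100 bp, and in EpiSC the means stay at 80% or more except in Zfp580 and Zfp771.

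Clusters with CpG-rich exons stood out in ASC. The 6 last exons of the cluster at chr7:4915217-5053723, which runs from Zfp628 to Zfp580, had medians of 27.5% in ASC and 95.9% in EpiSC, and the 9 tested exons at chr7:127233061-127885996, from Zfp553 to Zfp646, had 35.2% and 95.7%. The cluster at chr7:12415153-12985714 had the highest ASC median among clusters with more than 1 tested exon, 77.3% over 7 exons against 94.8% in EpiSC. Of the 7, 2 were called lower in ASC than in EpiSC, where 68.0% of all last exons passed. The 15 exons of the cluster at chr7:29768552-30169750, all tested, gave 67.9% in ASC, 20.3% in ESC and 96.2% in EpiSC. Of these 14 were called, beside the same 68.0% of all last exons. Zfp568 in this cluster gave 61.8% and 64.7% in ASC, 18% and 26.5% in ESC and 95.2% and 95.2% in EpiSC (adjusted p = 3.2e-20 for ASC against EpiSC), close to the median of the set.

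Compared with ESC, 105 of the 123 last exons were higher in ASC, or 85.4%, where 87.0% of all last exons passed. Zfp112 had the largest gap, with 9.82% and 17.7% in ESC and 75.9% and 75.8% in ASC (chr7:24124835-24127493, adjusted p = 1.56e-28). Zfp420 gave 21.7% and 21.6% in ESC and 79.9% and 84.2% in ASC (chr7:29874179-29876827, adjusted p = 1.16e-28), and Zfp712 14.1% and 12.7% against 72.1% and 74.3% (adjusted p = 2.24e-13). Zfp110 gave 22.4% and 25.6% in ESC and 80.8% and 84.2% in ASC (adjusted p = 8.59e-13), and Zfp51 11.4% and 15.8% against 70.7% and 70.5% (adjusted p = 1.41e-09). These were picked as the largest called gaps, so that their ASC levels lie above their ESC levels by choice. In Zfp428 the ASC and ESC levels differed by 0.574 points (adjusted p = 0.698). Zfp217 and Zfp335, whose fingers lie before the last exon, were higher in ASC by 22.8 points (adjusted p = 1.44e-05) and 44.9 points (adjusted p = 1.52e-09).

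In EpiSC 122 of the 123 last exons, or 99.2%, were higher than in ESC, where 96.8% of all last exons passed. The gaps were 95.1 points in Zfp787 (adjusted p = 1.3e-63), 94.3 in Zfp553 (adjusted p = 4.58e-66), 93.6 in Zfp57 (adjusted p = 6.01e-42), 92.6 in Zfp428 (adjusted p = 8.48e-38) and 92.1 in Zfp30 (adjusted p = 5.54e-54). The gene that did not pass was Zfp771, at 17.9 points (adjusted p = 1.94e-30). No last exon was lower in ASC or in EpiSC than in ESC by the limma-moderated model, Fisher's exact test or limma on M values, and 0 were so at an unadjusted p under 0.05. Over all last exons 0% and 0.00976% were called so. The ESC medians of the Zfp exons, 18% and 18.8%, lay below the minimum difference. A call below ESC was thus out of reach for many of them.

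Within a gene, the last exon was higher than the promoter in 83 of the 100 genes with both regions tested in ASC, in 33 in ESC and in 94 in EpiSC, where 80.1%, 37.7% and 83.3% of all 8424 genes passed. No Zfp last exon was called lower than its promoter with the limma-moderated model, Fisher's exact test or limma on M values. By the first of these, 2.93%, 0.546% and 1.73% of all genes were called lower in ASC, ESC and EpiSC. Such a call needs a promoter level of at least the minimum difference. In ESC the highest mean of a tested Zfp promoter was 20.7%, so almost none could be called there. In ASC 94 of the 126 tested promoters lay under 10%. At an unadjusted p under 0.05 the last exon was lower in 3 of the 100 genes in ASC, 4 in ESC and 1 in EpiSC. Over all 8424 genes these counts were 460, 319 and 260. In ASC the gap was 82 points in Zfp420 (adjusted p = 2.04e-15), whose promoter was at 0% and 0% and whose last exon was at 79.9% and 84.2%. It was 81.3 points in Zfp110 (adjusted p = 1.42e-14), 80.7 in Zfp850 (adjusted p = 1e-15), 80.1 in Zfp523 (adjusted p = 2.39e-19) and 79.1 in Zfp784 (adjusted p = 8.25e-18). Zfp523, a relative of Zfp143 with its fingers before the last exon, stood among genes with all fingers in it.

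In ESC the largest gaps were 34.2 points in Zfp850 (adjusted p = 5.7e-09), 32.5 in Zfp523 (adjusted p = 1.57e-12), 31.4 in Zfp936 (adjusted p = 1.15e-05), 28.8 in Zfp94 (adjusted p = 1.94e-10) and 28.6 in Zfp27 (adjusted p = 1.75e-08). The last exon of Zfp936, at 46.3% and 37.9%, was the most methylated of the tested Zfp exons in ESC. In EpiSC the largest gaps were 97.8 points in Zfp131 (adjusted p = 6.74e-21), 96.7 in Zfp51 (adjusted p = 1.79e-15), 96.4 in Zfp524 (adjusted p = 4.7e-25), 95.8 in Zfp408 (adjusted p = 1.53e-25) and 95.7 in Zfp84 (adjusted p = 1.66e-20). Zfp131 encodes a protein with a BTB domain, and its promoter with 98 CpG sites lay under 1% in all 6 libraries while its last exon was at 97% and 100% in EpiSC. The 6 genes that did not pass in EpiSC were Zfp366, Zfp65, Zfp771, Zfp773, Zfp819 and Zfp936. In Zfp819 the last exon lay at 92.2% and 94.1% under a promoter at 97.5% and 97.1%, and in Zfp771 both ends were low. In ASC the 17 that did not pass included Zfp57, Zfp428, Zfp553 and Zfp787, in which both ends were low.

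The calls at both ends were also counted per gene. Of the 100 genes, 20 were lower in ASC than in EpiSC at both ends, 5 at the promoter alone, 59 at the last exon alone and 16 at neither. Over all 8424 genes with both ends tested the shares were 14.3%, 6.79%, 55.7% and 23.3%, and the difference from these was not tested. The 5 were Zfp110, Zfp65, Zfp738, Zfp819 and Zfp936. Across the 100 genes the promoter level and the last exon level had Pearson's r of 0.09 in ASC, 0.10 in ESC and -0.06 in EpiSC, and Spearman's rho of 0.13, 0.09 and -0.21, given as a description.

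Within the last exon the fingers were set beside the rest of the coding sequence. Pooled over 165 genes with fingers in the last exon, the finger bases held 2 CpG sites per 100 bp and were methylated to 46.9% and 47.3% in ASC, 14.1% and 13.9% in ESC and 91.8% and 89.9% in EpiSC. Coding bases outside the fingers, pooled over 184 genes, held 2.06 sites per 100 bp and gave 49% and 49.7%, 13.9% and 15.2%, and 93.3% and 92.3%. The fingers lay below these bases in both libraries of ASC and of EpiSC, by a few points that were not tested. The 2 sets of genes are not the same, since genes without a finger in the last exon enter only the second. Non-coding bases of the exon, pooled over all 186 genes, held 0.82 sites per 100 bp and gave 64.6% and 64.9% in ASC, 20.3% and 21.9% in ESC and 93.4% and 92.9% in EpiSC. The coding and non-coding parts differed most in ASC, and their unequal CpG density moved with that difference, its part in it not being tested. With the coding part of the last exon alone, the median over 101 genes was 63.8% in ASC, 16.7% in ESC and 95.6% in EpiSC.

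The partners through which KRAB zinc finger proteins silence DNA were examined at their promoters from a list of 13 genes, of which 10 were tested. Trim28, the corepressor bound by KRAB, lay between 0% and 1.21% in all 6 libraries. Cbx3 and Cbx5, which encode HP1 proteins, lay under 1% in all 6. None of the 10 was called between ASC and EpiSC, where 24.2% of all promoters passed, or between ASC and ESC, where 17.3% did. Cbx1 missed the minimum difference narrowly at -19.2 points for ASC minus EpiSC (adjusted p = 0.000416), as did Atf7ip at -18.2 (adjusted p = 0.0355) and Smarcad1 at -16.5 points (adjusted p = 0.004). Between EpiSC and ESC 3 of the 10 were called, where 36.9% of all promoters passed. Atf7ip, a partner of SETDB1, was higher in EpiSC than in ESC, at 28.7% and 48.1% against 9.83% and 6.33% (adjusted p = 0.000154). Cbx1, another HP1 gene, gave 25.8% and 21.4% in EpiSC and 1.46% and 0% in ESC (adjusted p = 1.71e-05), and the remodeller gene Smarcad1 17.2% and 24.3% against 0.5% and 0% (adjusted p = 3.83e-05). Setdb1 itself had 21 reads in its shallowest library and was not tested.

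The Zfp genes left out had under 40 reads in at least 1 library. Of the 60 untested promoters, 7 had no read in any library, those of Zfp965, Zfp966, Zfp967, Zfp968, Zfp969, Zfp973 and Zfp97. The first 6 lie on chromosome 2, and the cluster at chr2:175372436-175931100, which holds 4 of them, had no tested promoter or last exon, nor had that at chr2:177464733-178078476. Reads per CpG site and library averaged 3.71 over the Zfp promoters and 3.95 over all promoters, and 4.61 and 4.53 over last exons. Zfp934 and Zfp935 share 1 promoter window and are counted as 2. Some other regions overlap and are counted for each gene as well. The promoters of Zfp668 and Zfp646 share most of their bases, and the last exon of Zfp784 lies inside that of Zfp865. Just inside the minimum stood the promoters of Zfp719 with 40 reads and Zfp65 and Zfp738 with 41, and just outside Zfp976 with 39, Zfp708 with 38 and Zfp458 with 37, the last with 17.9% and 8.11% in ASC and 19.1% and 31% in EpiSC. Among last exons, Zfp455 and Zfp59 stood inside with 40 reads, and Zfp369, Zfp541 and Zfp708 outside with 39, at 84.9% to 97.6% in EpiSC like the tested ones.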

How the data were processed

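DNA methylation was measured by PBAT bisulfite sequencing in 6 libraries. According to the labels and the methods of the study, the authors trimmed reads with Trim Galore, aligned them with Bismark 0.16.3 to GRCm38 (mm10), removed duplicates and counted CpG reads with MethPipe, the version of which the sources used here do not name. For each CpG site the authors deposited a fraction of methylated reads and a raw count of covering reads, not normalized. Single sites were shallow, so reads were summed over regions, where 40 reads set a coarse precision. Intervals and limits cover counting error only and take CpG reads as independent, which sites on the same sequenced read are not.

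Methylated counts were the product of fraction and coverage, which differed from whole numbers by at most 0.000115. Transcripts came from GENCODE M21. A logistic model with a term for group was fitted to all 6 libraries, the quasi-binomial dispersion was moderated across regions (limma 3.58.1, R 4.3.3, squeezeVar), and a deviance F test (two-sided) was run per contrast with Benjamini-Hochberg adjustment over all regions of a kind. The prior of this moderation had 7.33 degrees of freedom for promoters, 101 for last exons and 28.9 for pairs. For last exons the dispersion thus came mostly from all regions together and little from the libraries of the region itself. All adjusted p-values come from this model. A call needed an adjusted p under 0.05 and a difference of at least 20 points between group means. The last exon was set against the promoter in the same model with a term for each group and region. The code was tested on simulated data. Python 3.11.15 was used for tables.

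Promoters of high CpG density held a stretch of 500 bp with an observed to expected CpG ratio over 0.75 and over 55% GC, those of low density none over 0.48. Fingers were found as C, 2 to 4 residues, C, 12 residues, H, 3 to 5 residues, H, and a KRAB core as Y, 2 residues, VM, 1 residue, E. Named genes were the 5 with the largest called difference in each direction of each contrast, plus Zfp57, Zfp568, Zfp296, Zfp110, Zfp541, Zfp36, Zfp217, Zfp335, Zfp64, Zfp143 and Zfp708, and others were named after their values were seen. The members, lists and tests were chosen with earlier results of these data known. Replicates differed by more than counting error of independent CpG reads, with a mean chi-square between 1.44 and 2.46 over Zfp regions. Sites on the same sequenced read are not independent and raise this value too, so it does not measure the replicate spread alone. It covered 111 promoters in ASC, 106 in ESC and 125 in EpiSC, and 123 last exons. Each library was counted once. Groups came from the sample titles. The alternatives tried are listed in the closing section.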

Additional observations from a re-analysis of the deposited data

Results flagged for a closer look

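In 5 Zfp genes the last exon and the promoter were ordered one way in both libraries of 2 groups and the other way in both libraries of the third. The difference between groups was not tested as such, and the share of all genes with such a change of order was not counted. In Zfp819 the last exon was above the promoter by 62.8 points in ASC and 24.6 in ESC, and the difference was -4.11 in EpiSC. In Zfp30 the difference of last exon minus promoter was -13.1 in ASC, -6.93 in ESC and 49 in EpiSC. In Zfp580 it was -9.96 in ASC, -4.6 in ESC and 42.9 in EpiSC, in Zfp773 it was -7.88, -13.5 and 8.85, and in Zfp771 it was -2.45, -1.56 and 8.94. None of the negative differences reached the minimum for a call. Their adjusted p ran from 0.0027 for Zfp580 in ASC to 0.308 for Zfp773 in ASC. Zfp771 and Zfp773 were called in no group, with adjusted p of 0.0035 and 0.15 in EpiSC. Their libraries were also apart, with 16.4 and 1.45 for Zfp771 in EpiSC and -1.8 and -14 for Zfp773 in ASC.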

How the results depend on the processing

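With at least 100 reads in every library the counts were 7 for promoters lower in ASC than in EpiSC, 0 for promoters higher in ASC than in ESC, 8 for promoters higher in EpiSC than in ESC, 68 for last exons higher in ASC than in ESC, and 25, 9 and 34 for last exons above promoters in ASC, ESC and EpiSC, with 50 promoters, 85 last exons and 35 pairs left. The shares were then 14%, 0% and 16% for promoters (13.4%, 4.32% and 19.6% of all), 80% for the last exons (82.6%) and 71.4%, 25.7% and 97.1% for pairs (83.4%, 40.1% and 90.8%), so that in ASC the Zfp share of pairs lay below that of all genes and not above it, and the cause was not tested. With 20 reads, promoters higher in ASC than in ESC were 14 of 162 (8.64%, against 24.6% of all) and last exons above promoters 127 of 148 in ASC (85.8%, against 75.9%) and 52 in ESC (35.1%, against 36.2%). Without a minimum difference the counts were 68, 21 and 94 for promoters (54%, 16.7% and 74.6%, against 51.1%, 35.8% and 76.2% of all) and 87 for last exons above promoters in ESC (87%, against 80.4%), with 2 promoters higher in ASC than in EpiSC (1.59%, against 0.853%) and 3, 4 and 1 of 100 last exons below promoters in ASC, ESC and EpiSC (5.41%, 3.58% and 3.05% of all). With a minimum of 40 points they were 10, 1 and 17 for promoters (7.94%, 0.794% and 13.5%, against 9.59%, 8.73% and 23.3% of all), 38 for last exons lower in ASC than in EpiSC (30.9%, against 21.3%) and 0 for last exons above promoters in ESC (0.736% of all). With the coding part of the last exon 2 of 85 genes were lower than their promoter in ASC (2.35%, against 6.34% of all). Leaving out each replicate in turn gave 3 to 6 promoters higher in ASC than in ESC, 27 to 30 lower in ASC than in EpiSC and 40 to 44 higher in EpiSC than in ESC, with last exons from 91 to 99, 104 to 114 and 122 to 132 and pairs from 83 to 88, 33 to 37 and 94 to 99. The highest last exon counts came without EpiSC replicate 2, where 132 exons were tested, at 75%, 86.4% and 100% against 67.6%, 87.4% and 96.9% of all. Over the window of 500 bp on either side of the start the promoter of Zfp414 reversed between ASC and ESC, at -1.15 points, and Zfp334 and Zfp30 lost their calls at 5.55 and 1.81 points. Fisher's exact test, limma on M values, a dispersion not below 1, the longest transcript and symbols with letters changed no count by over 1.5 times. Replicate differences of different groups correlated between -0.011 and 0.006 across regions. Counting error at this depth pulls such values towards 0, so they cannot tell whether libraries of the same number shared a preparation. With a replicate block the counts were 30, 5 and 41 for promoters and 94, 105 and 122 for last exons, and 83, 33 and 94 pairs with each library as a term, and the promoter call of Zfp334 between ASC and ESC was lost (adjusted p = 0.11).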
